A study of Mus musculus with 6 samples.

Results

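Genes of the Bcl2 family and of cell death control were examined in mouse GV oocytes, the full-sized oocytes that still hold an intact germinal vesicle (the nucleus of meiotic prophase). The members were Bcl2, Bcl2l1, Bcl2l10, Mcl1, Bax, Bak1, Bid, Bok, Diablo and Trp63, and every probe set that the platform annotation pairs with 1 of these symbols alone was taken. This gave 28 probe sets of 9 of the 10 genes, out of 45037 probe sets that are not controls and 18193 genes named by a single symbol. Bax had no probe set under this rule and was not analysed here. None of the 10 genes is X-linked: in GRCm38.p6 Bcl2 and Bok lie on chromosome 1, Bcl2l1 on 2, Mcl1 on 3, Diablo on 5, Bid on 6, Bax on 7, Bcl2l10 on 9, Trp63 on 16 and Bak1 on 17.

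The oocytes came from XX and XY females of B6.Y(TIR), which carries a Tirano Y chromosome on C57BL/6 and whose XY animals can form ovaries. The XX females were littermates of the XY females and served as controls. All females received 5 IU of equine chorionic gonadotropin at 25 to 29 days of age, and 45 to 47 hours later their oocytes were collected and the cumulus cells removed. Each sample was the RNA of 10 oocytes of a female, amplified in a 2-cycle reaction from oligo(dT) primers and hybridised to an Affymetrix 3' expression array, with 3 arrays for each genotype. The samples are pools of oocytes, so fewer oocytes with a transcript and less of it per oocyte cannot be told apart.

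The Bcl2 family decides whether the outer mitochondrial membrane stays intact. Bcl2, Bcl2l1 (Bcl-xL) and Mcl1 hold the pore-forming members Bax and Bak1 in check, and BH3-only proteins such as Bid release that hold. Bok is a further pore-forming member. Once the membrane opens, Diablo (also called Smac) leaves the mitochondrion and binds the inhibitor of apoptosis proteins, which frees the caspases. In oocytes the p53 relative encoded by Trp63 guards genome integrity and can start cell death after DNA damage, and Bcl2l10 (also called Diva or Boo) is a Bcl2 relative found mainly in oocytes.

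The arrays carried the marks of oocytes. Of 14 oocyte markers, among them Gdf9, Zp2 and Zp3, 13 had a probe set and all 13 lay above the filter on dim signals. In limma 2 of the 13 fell in XY, Bmp15 by 1.34 (adjusted p = 0.0143) and Mos by 0.85 (adjusted p = 0.0351), and 0 rose. Over all tested probe sets 5.36% fell and 5.01% rose. The summed normalized intensity of the 13 oocyte markers was 92025 to 97065 in XX and 80881 to 85971 in XY (exact two-sided permutation p = 0.1, the smallest that 3 arrays against 3 allow). The sum of 13 granulosa and cumulus markers was 1449 to 1706 in XX and 1633 to 1834 in XY. Nr5a2 made the largest part of it, with deposited intensities of 762 to 1110 in XX and 552 to 810 in XY (log2 change -0.16). So the sum says little of the others. Of the 13, 10 passed the filter and 0 were called in limma. Inha, Fshr and Kitl, chosen after their values were seen, had 1.58 (adjusted p = 0.0545), 0.89 (0.120) and -0.63 (0.0870). The sum of 6 theca and stroma markers was 94.9 to 144 in XX and 237 to 372 in XY (exact permutation p = 0.1). Of these 6, 2 passed the filter, Dcn with a log2 change of 1.85 (adjusted p = 0.0566) and Col1a2 with 0.08 (0.926), so the sum follows Dcn. The sum of 7 blood and immune markers was 163 to 197 in XX and 203 to 250 in XY (exact permutation p = 0.1). No probe set of these lists read exactly 0. The part of these differences in the results below was not tested. The Actb control probes compare signal at both ends of the transcript, and the log2 ratio of 3' over 5' signal rises as the labelled RNA is shorter. It was 5.53 in XX 1, 3.87 in XX 2 and 3.996 in XX 3, and 5.20 to 5.90 in XY (exact permutation p = 0.2). On this measure XX 1 lay among the XY arrays.

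Of the 28 member probe sets, 14 passed the filter, which requires 3 or more of the 6 arrays to reach their own median. These 14 belong to 7 genes. All 6 arrays were above the median for 10 of them. The other 4, in Bcl2, Bok and Trp63, passed on fewer arrays, and 3 of these 4 passed with all 3 XY arrays and fewer XX arrays, so that their direction is partly set by the filter. Among the 14, 1 rose in XY and 0 fell, at an adjusted p of 0.05 in limma. Over all 22997 probe sets tested, 10.4% were called in either direction, 5.01% higher and 5.36% lower. The members' share of 7.14% is near this background. A total of 4 of the 14 had an unadjusted p under 0.05, against 30.2% of all probe sets. XX and XY values did not overlap in 4 of the 14, all with XY above, whereas 36.6% of all probe sets did not overlap and 18.5% had XY above. With the deposited values 7 of the 14 did not overlap, again all with XY above, 4 of them in Mcl1, against 25.4% of all probe sets and 11.6% with XY above. The median log2 change of the 14 was 0.59, and that of all probe sets tested was 0.01. Mcl1 alone supplies 6 of the 14, so this median is not one of independent genes. With no filter, the median of all 28 member probe sets was 0.17.

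Diablo is the member whose change passed the test, and the sequence before its start is shown for that reason. RefSeq (GRCm38.p6) places Diablo on chromosome 5 from 123511330 to 123524164, on the minus strand. The 250 bases before its start, chr5:123524165-123524414 on the minus strand, are printed 5′ to 3′ with matches to 4 short motifs in capitals, each searched on both strands. From the left they are TGACG (the core of the cyclic AMP response element, here on the opposite strand as CGTCA), the E-box CANNTG, the GC box GGGCGG (on the opposite strand as CCGCCC) and CCAAT.
Diablo: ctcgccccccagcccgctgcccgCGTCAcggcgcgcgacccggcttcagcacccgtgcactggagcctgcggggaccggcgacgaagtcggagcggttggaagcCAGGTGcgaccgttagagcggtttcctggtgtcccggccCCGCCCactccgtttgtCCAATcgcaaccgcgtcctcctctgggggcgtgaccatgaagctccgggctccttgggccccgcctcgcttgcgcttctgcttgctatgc
The window is 70.4% G and C, and the 4 matches do not overlap one another. Among 32851 promoter windows of the same length, 17.8% hold TGACG, 66.2% CANNTG, 32.7% GGGCGG and 33.8% CCAAT. The half-site of the p53 family, which p63 can bind, was found in 7.13% of all windows and in 1 of the 10 windows of the 8 members with an entry, that of Bax. CCAAT was found in 1 of these 10 windows, that of Diablo, and the GC box in 6. A match is a description of letters in the window and not of a bound site.

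Diablo, which encodes the mitochondrial antagonist of the inhibitor of apoptosis proteins, rose in XY oocytes. At its probe set 1417683_at the XX arrays 1, 2 and 3 had deposited intensities of 261, 347 and 388. The XY arrays 1, 2 and 3 had 542, 439 and 424. After quantile normalization the log2 levels were 8.38, 8.27 and 8.23 in XX and 9.02, 9.18 and 9.03 in XY. All XY arrays lay above all XX arrays on both scales, and XX 1 lay with the other XX arrays. The log2 change was 0.79 ± 0.15 (SE, n = 3 each; 95% interval 0.43 to 1.14), or 1.72-fold, with limma's adjusted p = 0.0235. The change was positive in all 19 alternatives and passed in 9 of them. It did not pass with the deposited values (0.49, adjusted p = 0.314) or with median scaling (0.33, adjusted p = 0.359). Relative to the median of all probe sets, the change was 0.77 in the main setting, 0.63 with the deposited values, 0.62 with median scaling and 0.65 with trimmed mean scaling. Leaving out any array but XX 1 ended the call with little move in the change, which was 0.77 (adjusted p = 0.0735, XX 2 left out), 0.75 (0.0720, XX 3), 0.81 (0.0635, XY 1), 0.74 (0.0885, XY 2) and 0.82 (0.0736, XY 3). Leaving out XX 1 gave 0.83 (0.0151). Adding the Actb ratio to the fit gave a change of 0.74 and the adjusted p 0.122. The second Diablo probe set (1425768_at) did not pass the filter, with intensities of 6.58 to 19.6 in XX and 5.20 to 11.0 in XY.

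**Figure D1:**
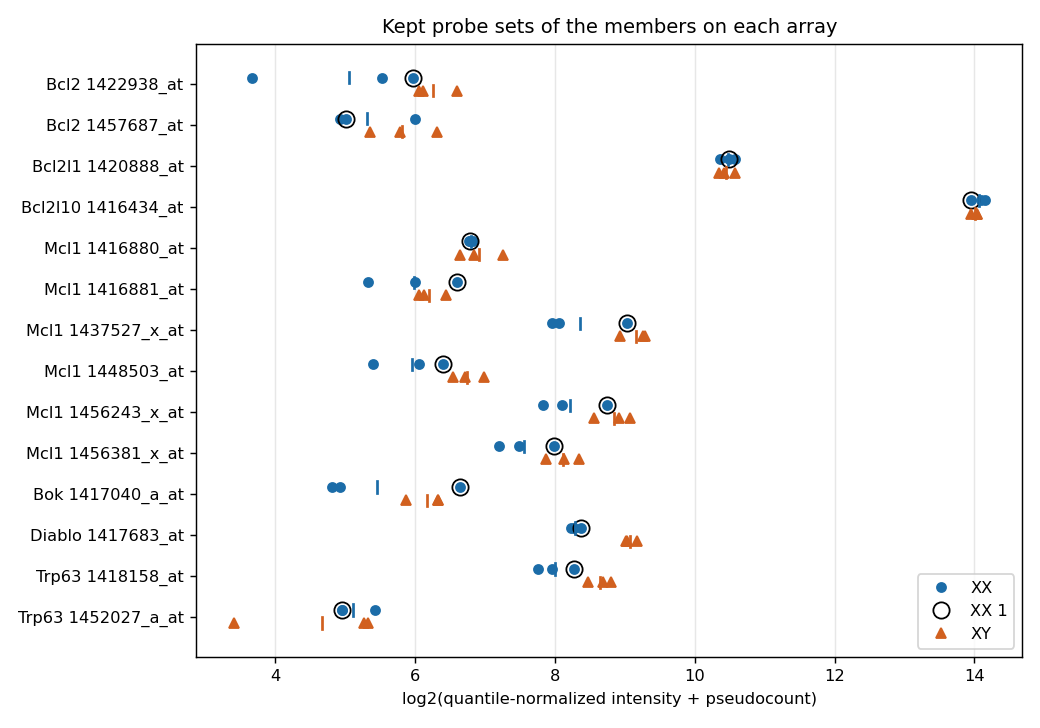
Each row is a tested probe set of a member, and the x axis is log2(quantile-normalized intensity + pseudocount). Circles are the 3 XX arrays (XX 1 ringed), triangles the 3 XY arrays, and short bars the group means; Diablo 1417683_at shows XX at 8.23 to 8.38 and XY at 9.02 to 9.18, with no overlap.

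Trp63, the p53 relative that guards the oocyte genome, was tested at 2 of its 4 probe sets, and 1418158_at passed the filter on all arrays. There the XX arrays 1 to 3 had intensities of 242, 276 and 273, and the XY arrays 1 to 3 had 367, 342 and 335. All XY arrays lay above all XX arrays, also after normalization (XX 7.76 to 8.27, XY 8.47 to 8.80). Its log2 change of 0.65 ± 0.19 (SE; 95% interval 0.20 to 1.11) did not pass limma's threshold (adjusted p = 0.0739). It passed in 5 of 19 alternatives, among them the fit without XX 1 (0.79, adjusted p = 0.0263). With the deposited values it was 0.39 (adjusted p = 0.396), and with median scaling 0.23 (0.507). Relative to all probe sets it was 0.64 in the main setting and 0.52 to 0.55 in these scalings and trimmed mean scaling. The other tested Trp63 probe set (1452027_a_at) lay at 19.0, 34.2 and 21.9 in XX and 34.1, 2.16 and 30.1 in XY. Its log2 change was -0.45 ± 0.50 (adjusted p = 0.584), with XY 2 far below the other XY arrays, and it turned to 0.19 (adjusted p = 0.659) without XY 2. As the mean of both, Trp63 had a change of 0.10 (adjusted p = 0.808). The other 2 Trp63 probe sets did not pass the filter, with intensities of 9.62 to 78.3 in XX and 3.87 to 31.1 in XY. With no filter, their log2 changes in limma were -1.15 (1451876_a_at, adjusted p = 0.329) and 0.25 (1459581_at, 0.758).

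Bcl2l10 (1416434_at), the oocyte member of the family, read 15716, 18811 and 19185 on the XX arrays 1 to 3 and 17840, 13587 and 15371 on the XY arrays 1 to 3. The groups overlapped. Log2 levels were 14.07 ± 0.10 (XX) and 14.01 ± 0.05 (XY, both SD, n = 3), and the change was -0.06 ± 0.15 (SE, adjusted p = 0.815). The 95% interval of -0.41 to 0.29 covers differences in either direction. Under the deposited values the change was -0.20, under median scaling -0.37, and under trimmed mean scaling 0.11. Relative to the median of all probe sets it stayed between -0.08 and -0.04 in these 4 scalings.

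Bcl2l1, which encodes the survival protein Bcl-xL, was read by 4 probe sets, of which 1 (1420888_at) passed the filter. It stood at 1179, 1544 and 2101 on the XX arrays 1 to 3 and at 1415, 968 and 1216 on the XY arrays 1 to 3. The groups overlapped, and after normalization both groups spanned 10.35 to 10.57. The log2 change was -0.03 ± 0.16 (SE; 95% interval -0.40 to 0.34; adjusted p = 0.922). With the deposited values it was -0.40 (adjusted p = 0.459) and with median scaling -0.56 (0.172), where all probe sets had medians of -0.14 and -0.29. The 3 probe sets below the filter read 1.44 to 52.1 in XX and 1.02 to 43.0 in XY.

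Mcl1, a short-lived survival protein of the family, had 6 probe sets, and all 6 passed the filter on all 6 arrays. Their log2 changes were all positive in the main setting, from 0.12 to 0.81, but 1416880_at and 1416881_at were each negative in 2 alternatives, the former with median scaling (-0.11). None passed limma's threshold, and 2 of the 6 had an unadjusted p under 0.05, near the 30.2% of all probe sets. Affymetrix names with _x_at mark probe sets whose probes can also bind other transcripts, and 3 of the 6 are of this kind. The largest change was at 1437527_x_at, which read 417, 298 and 319 on the XX arrays 1 to 3 and 509, 463 and 503 on the XY arrays 1 to 3. These groups did not overlap as deposited. After normalization they did, because XX 1 (9.03) lay above XY 1 (8.93), while XX 2 and XX 3 lay at 8.06 and 7.96. The change was 0.81 ± 0.30 (SE, adjusted p = 0.125). At 1448503_at, a probe set with no such mark, the intensity was 62.6, 59.4 and 33.4 in XX and 91.8, 86.3 and 107 in XY. There the groups did not overlap on either scale, and the change was 0.79 ± 0.28 (adjusted p = 0.107).

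The remaining Mcl1 probe sets gave changes of 0.63 (1456243_x_at, adjusted p = 0.170), 0.55 (1456381_x_at, 0.174), 0.23 (1416881_at, 0.665) and 0.12 (1416880_at, 0.717). At 1456243_x_at, the log2 level of XX 1 was 8.74, between 8.56 and 9.08 in the XY arrays, against 8.10 and 7.82 in XX 2 and XX 3. Without XX 1, 4 of the 6 passed: 1437527_x_at (1.14, adjusted p = 0.0120), 1456243_x_at (0.89, 0.0340), 1448503_at (1.03, 0.0384) and 1456381_x_at (0.77, 0.0431). In that setting 23% of all probe sets passed and 12.1% passed as higher, so calls rose over the whole array. The Actb control ratio put XX 1 among the XY arrays in the same way. With that ratio as a covariate, the changes of 1437527_x_at, 1456243_x_at, 1448503_at and 1456381_x_at were 0.26, 0.27, 0.44 and 0.28, and with median scaling they were 0.35, 0.19, 0.66 and 0.19. Under the covariate 0 of the 14 member probe sets and 16 of all 22997 passed. Its part in these values was not tested.

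**Figure D2:**
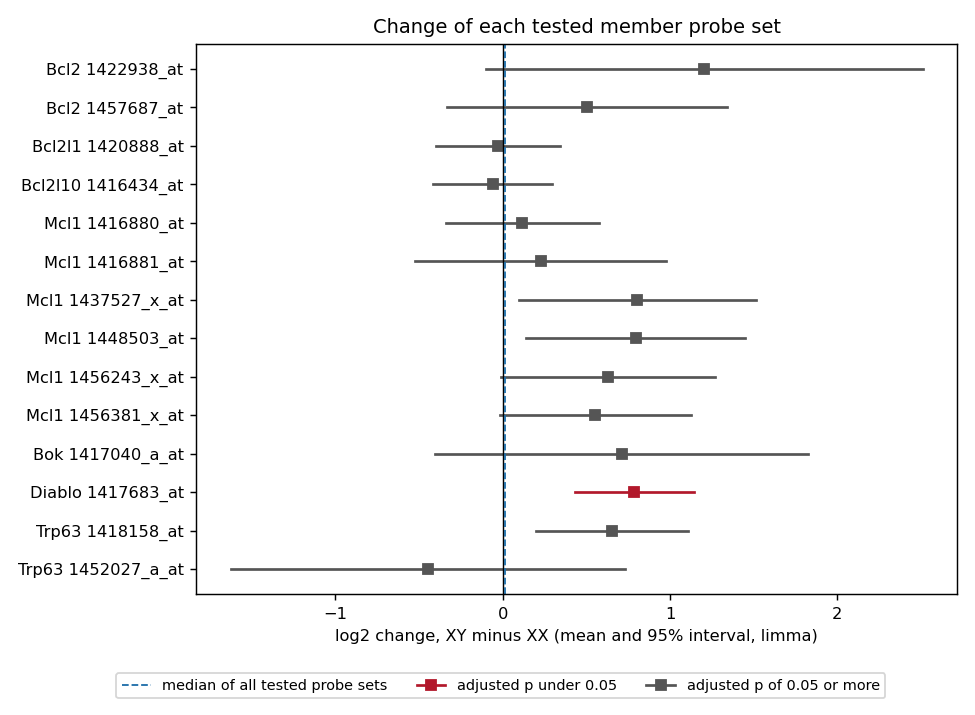
Squares are log2 changes (XY minus XX) of the 14 tested member probe sets in limma, bars their 95% intervals, and the dashed line the median of all tested probe sets (0.01). Diablo 1417683_at, in red, is the one with an adjusted p under 0.05, and the 6 Mcl1 probe sets run from 0.12 to 0.81.

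Bcl2, the founding survival gene of the family, was dim in these oocytes. Of its 5 probe sets, 2 passed the filter. At 1422938_at the intensity was 44.9, 3.61 and 37.8 on the XX arrays 1 to 3 and 63.5, 80.1 and 58.4 on the XY arrays 1 to 3. All XY arrays lay above all XX arrays, but XX 2 lay far below XX 1 and XX 3. The log2 change was 1.21 ± 0.56 (SE; 95% interval -0.10 to 2.51; adjusted p = 0.193). It was 0.50 (adjusted p = 0.278) without XX 2 and 0.43 (0.780) with the Actb ratio added to the fit. At 1457687_at the intensity was 20.1, 57.1 and 21.1 in XX and 77.1, 47.0 and 32.3 in XY, with overlap, and the change was 0.51 ± 0.36 (adjusted p = 0.375). These 2 together, as a mean of probe sets, gave 0.86 with an adjusted p of 0.0449, the one alternative in which Bcl2 passed. Both passed the filter with all 3 XY arrays and fewer XX arrays, so the direction of their mean is partly set by the filter. The other 3 probe sets, which this mean leaves out, read 3.11 to 32.8 in XX and 8.11 to 19.2 in XY. In the fit with no filter their log2 changes were -0.02, -0.54 and -0.06.

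Of the pore-forming members, Bok passed the filter and Bak1 did not. Bok (1417040_a_at) read 75.7, 18.8 and 21.1 on the XX arrays 1 to 3 and 54.4, 67.2 and 67.9 on the XY arrays 1 to 3. XX 1 was the highest of all 6 arrays after normalization (6.65, against 5.87 to 6.32 in XY), whereas XX 2 and XX 3 lay at 4.81 and 4.92. The change of 0.71 ± 0.48 (SE) had an adjusted p of 0.350. Without XX 1 it was 1.32 (adjusted p = 0.0121), and with the Actb ratio added to the fit it was -0.27. Both differ from the main value by over its standard error. With XX 1 left out, Bok passed the filter through the 3 XY arrays alone, so its direction there is partly set by the filter.

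Bak1, whose protein opens the outer mitochondrial membrane, had 2 probe sets below the filter, with intensities of 1.31 to 18.6 in XX and 3.79 to 29.7 in XY. Array medians were 24.5 to 31.4. At 1418991_at, the intensity was 6.76, 1.31 and 2.39 in XX and 14.9, 12.2 and 17.5 in XY, a gap without overlap at a level below the array medians. In the fit with no filter its log2 change was 0.87 ± 0.25 (SE, adjusted p = 0.133), and 0 of the 28 member probe sets passed, against 1.22% of all. Bid, the BH3-only protein that links death receptors to mitochondria, had 3 probe sets below the filter, at 0.961 to 25.8 in XX and 1.88 to 32.4 in XY. Over the 14 member probe sets below the filter, intensities ran from 0.961 to 78.3. XX and XY did not overlap in 4 of them after normalization, with XY above in 1 and below in 3. The 3 below were Bcl2 1440770_at, Bcl2l1 1426191_a_at and Bid 1447873_x_at. With no filter, their log2 changes in limma were -0.54 (adjusted p = 0.270), -0.48 (0.358) and -0.35 (0.381). Over all 22040 probe sets below the filter, 13.3% did not overlap, 6.39% with XY above and 6.86% with XY below.

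**Figure D3:**
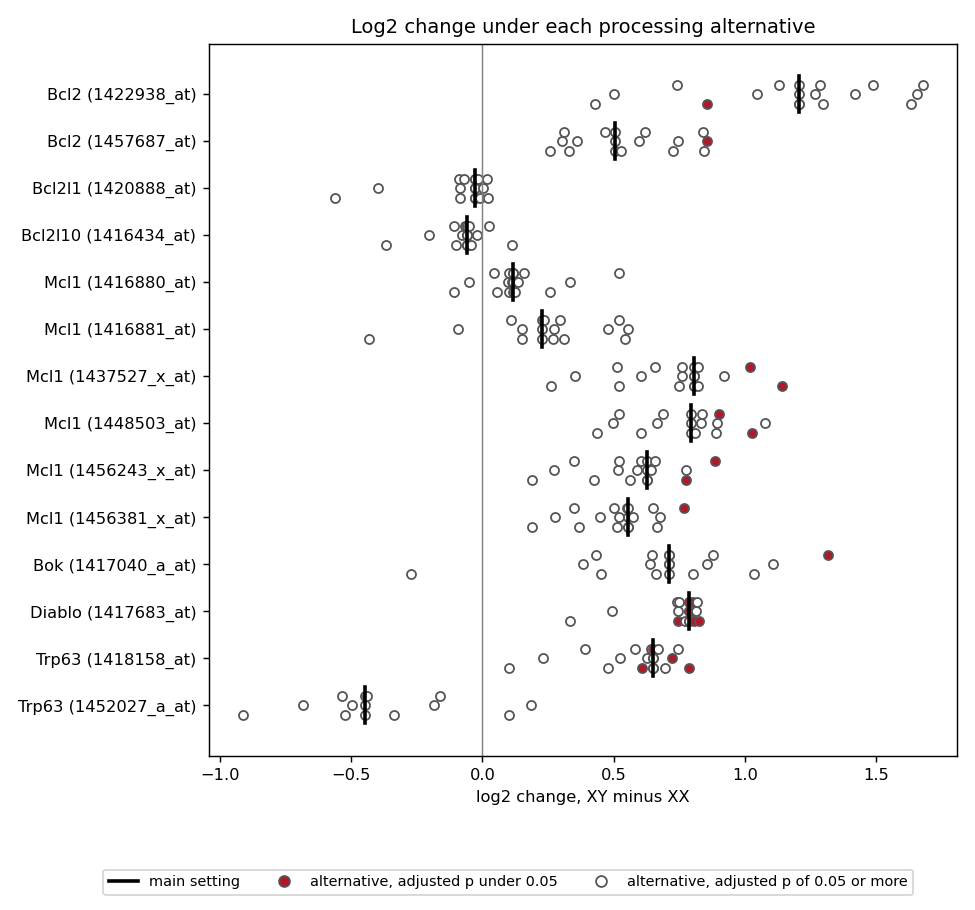
Each row is a tested member probe set (in the alternative that averages probe sets, its gene), black bars are its log2 change (XY minus XX) in the main setting, and dots are the processing alternatives, filled where limma's adjusted p was under 0.05. Diablo stayed between 0.33 and 0.83, and Bcl2l1 and Bcl2l10 lay on both sides of 0.

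The rest of the cell death pathway was read through 8 lists with 84 genes. Of these, 73 had a probe set and 59 passed the filter, with 125 probe sets. A total of 4 probe sets of 4 genes rose and 13 probe sets of 7 genes fell, so that 13.6% were called against 10.4% of all probe sets. The median log2 change was -0.17. Below, a gene counts as risen or fallen if any of its tested probe sets was called, which held for 7.49% (higher) and 7.27% (lower) of all 12442 genes tested. Genes with more probe sets have more chances to be counted. Probe sets of 4 X-linked genes made up 13 of the 125, and 9 of the 13 fell, 5 of them in Usp9x. The share of all X-linked probe sets that fell was not taken, so this count has no background here. On the autosomes 4 of 112 rose and 4 fell, which is 7.14%, with a median of -0.09.

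Among BH3-only, BNIP and other relatives, 2 of 11 tested genes rose and 1 fell. Bcl2l15, a little-studied relative of the family, rose by 2.72 ± 0.39 (log2 ± SE, adjusted p = 0.0117), with mean log2 levels of 6.77 (XX) and 9.48 (XY), and passed in 18 of 19 alternatives. Bcl2l11, which encodes the BH3-only protein Bim, rose at 1 of its 5 tested probe sets, by 0.87 ± 0.17 (adjusted p = 0.0256). The other 4 had changes of -0.03 to 0.58, and this call held in 8 of 18 alternatives. Bnip2, which encodes a Bcl2-interacting protein, fell at 1 of 4 probe sets by 0.92 ± 0.20 (adjusted p = 0.0339), held in 8 of 18 alternatives, and Bnip3, a mitophagy receptor gene, had 0.37 (0.159). Bbc3 (Puma) and Pmaip1 (Noxa), the BH3-only genes that p63 induces in damaged oocytes, did not pass the filter. They were chosen after their values were seen. Bbc3 read 65.2, 5.68 and 23.0 in XX and 28.0, 27.0 and 42.8 in XY, with overlap. Pmaip1 read 1.24 to 10.7 in XX and 7.37 to 21.99 in XY.

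The inhibitors of apoptosis, to which the Diablo protein binds, had 0 of 5 tested genes higher and 1 lower. Xiap, an X-linked gene for a direct caspase inhibitor, fell at 2 of its 4 tested probe sets, by 1.57 ± 0.26 (adjusted p = 0.0170) and 1.52 ± 0.28 (adjusted p = 0.0207). Its other 2 had -1.13 (adjusted p = 0.0647) and 0.25 (0.350), so its probe sets did not all go one way. The first of these calls held in 12 of 19 alternatives. The second, the fall of 1.52, passed the filter through the 3 XX arrays alone, so its direction is partly set by the filter. Birc6 had -0.85 (0.0581), Birc3 -0.48 (0.156) and Birc2 0.20 (0.565). Of 6 tested caspase genes none passed in limma, with Casp1 at 1.16 (adjusted p = 0.0706, unadjusted 0.0104), Casp9, the initiator caspase of the mitochondrial route, at -0.41 (adjusted 0.139, unadjusted 0.0371), and Casp14 and Casp8 at 0.48 and 0.19. These caspase counts are 0 at the adjusted threshold and 2 of 6 at an unadjusted p under 0.05, near the 30.2% of all probe sets. Casp1 passed the filter through the 3 XY arrays alone, so its direction is partly set by the filter. In the apoptosome and mitochondrial release list 0 of 9 genes passed, with Vdac1 at 0.61 (adjusted p = 0.0727; its 4 tested probe sets ran from -0.24 to 0.61), Endog at 0.48 (0.0911), Htra2 at -0.56 (0.0977) and Vdac2 at -0.45 (0.123). All 4 had an unadjusted p under 0.05 in limma, as did 30.2% of all probe sets. They were picked for the smallest p among 18 tested probe sets, so they do not stand for the list.

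In the death receptor pathway 2 of 5 tested genes rose, against 7.49% of all genes, each at 1 of its probe sets. Tnfsf10, which encodes the death ligand TRAIL, rose by 1.77 ± 0.22 (adjusted p = 0.00917), with mean levels of 6.50 (XX) and 8.28 (XY), and passed in 18 of 19 alternatives. Its second tested probe set had 1.41 (adjusted p = 0.0675). That probe set passed the filter through the 3 XY arrays alone, so its direction is partly set by the filter. Cflar, which encodes the caspase-8 inhibitor cFLIP, rose at 1 of 3 probe sets by 1.11 ± 0.21 (adjusted p = 0.0226), and the other 2 had 0.31 and 0.04. Its call held in 8 of 19 alternatives. The adaptor gene Fadd had -0.67 (0.119) and the receptor gene Tnfrsf1a 0.61 (0.393).

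Among relatives and controllers of p53, 0 of 12 genes rose and 1 fell. Trp53bp1, a DNA break response gene, fell at 1 of 4 probe sets by 0.91 ± 0.18 (adjusted p = 0.0245), its other 3 had -0.17, 0.10 and 0.27, and its call held in 9 of 18 alternatives. The checkpoint kinase gene Chek1 had -0.96 (0.0571), the p53 relative Trp73 -0.64 (0.0706) and the p53 inhibitor gene Mdm4 -0.51 (0.0822) at the probe set with the smallest p. The 4 tested probe sets of Chek1 ran from -0.96 to -0.10. The 4 tested probe sets of Mdm4 went both ways, 2 above 0 and 2 below, from -0.51 to 0.36. In the list of survival kinases and ubiquitin control of Mcl1, 0 of 9 genes rose and 4 fell, against 7.27% of all genes lower, and 2 of the 4 are X-linked. Usp9x, an X-linked deubiquitinase that stabilises the Mcl1 protein, fell at 5 of 6 tested probe sets, and all 6 had changes between -2.45 and -1.36. The uncalled Usp9x probe set passed the filter through the 3 XX arrays alone, so its direction is partly set by the filter. Huwe1, the X-linked ubiquitin ligase that marks the Mcl1 protein for decay, fell at both tested probe sets by 1.27 ± 0.26 (adjusted p = 0.0275) and 0.79 ± 0.19 (adjusted p = 0.0408). Kit, the receptor for the granulosa ligand that keeps oocytes alive, fell at 1 of 2 probe sets by 1.23 ± 0.25 (adjusted p = 0.0266). Its other probe set, brighter at a mean log2 level of 10.61 in XX against 7.46, had -0.31 (adjusted p = 0.258). Foxo3, a transcription factor that holds follicles dormant, fell at 1 of 3 by 0.76 ± 0.17 (adjusted p = 0.0329), and the others had -0.83 (0.0631) and -0.24 (0.492). Over the alternatives, the strongest Usp9x call held in 17 of 18, Huwe1 in 10 of 18, Kit in 11 of 18 and Foxo3 in 11 of 19. The 2 close relatives tested, Bcl2l2 (-0.57, adjusted p = 0.169) and Bcl2l12 (-0.18, 0.784), did not pass in limma, and 0 of these 2 had an unadjusted p under 0.05.

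**Figure D4:**
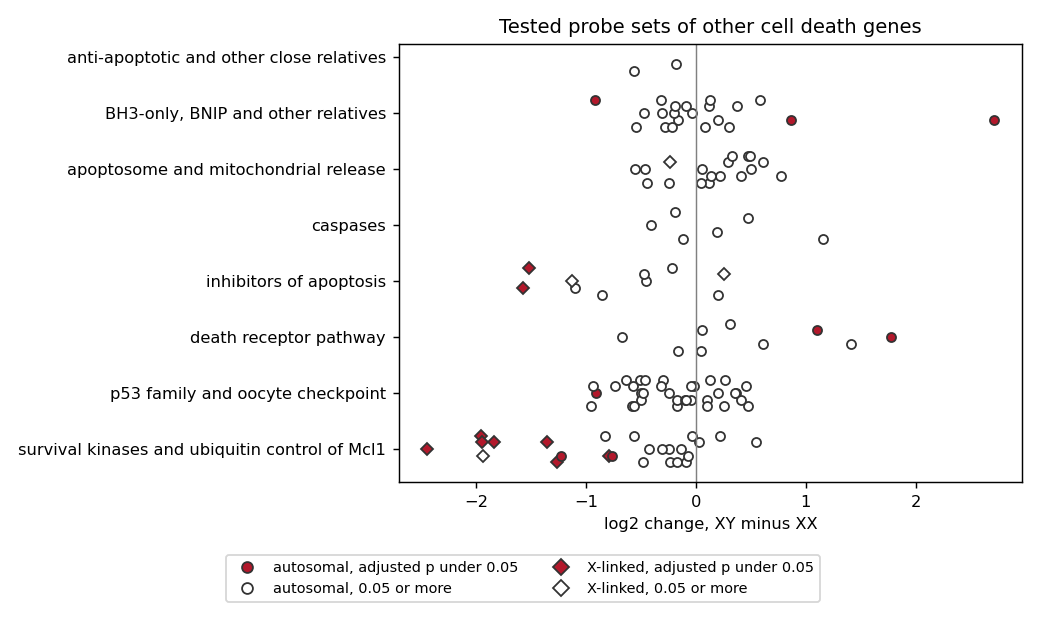
Each point is a tested probe set of another cell death gene, with its log2 change (XY minus XX) on the x axis and its list on the y axis. Diamonds are X-linked and filled points have an adjusted p under 0.05; the filled points on the left are 9 X-linked and 4 autosomal probe sets, and those on the right are 4 autosomal ones.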

How the data were processed

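The data comprised 6 arrays, 3 XX and 3 XY. The authors deposited 1 linear intensity per probe set and array, made with MAS5 per the submitters' processing notes. Which MAS5 version and target were used is not given in the sources used here. These arrays did not share a level (medians 24.5 to 31.4, trimmed means 194 to 332), so quantile normalization was the main setting. It gives every array the same distribution. Of 45037 probe sets beside 64 controls, 34945 had 1 gene symbol, 932 several and 9160 none. By gene ID, 34741 matched the RefSeq gene table of GRCm38.p6.

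Values were log2(normalized intensity + 8.71), the 25th percentile of the deposited values, and fold changes on this scale understate the change of dim genes. Each probe set at or above the array median on at least 3 of 6 arrays was tested on its own with lmFit and eBayes in limma 3.58.1 (R 4.3.3), with Benjamini-Hochberg adjustment over 22997 and a threshold of 0.05. Marker sums and control ratios were compared by exact permutation (two-sided). The fit was tested on simulated data. The sample titles call the replicates biological, and the extraction protocol in the labels takes 10 oocytes each from 3 XX and 3 XY females. With 3 arrays in each group, their number sets the precision.

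The members and lists were chosen with earlier results of these data known. Named genes were all members and, of each other list, up to 4 with the smallest p. The 19 alternatives changed the scaling, the filter, the pseudocount, how a gene's probe sets were used, the variance and weights, the replicate block and the Actb covariate, or left out an array. An earlier analysis of these data had added trimmed mean scaling and the Actb ratio after seeing them.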

Additional observations from a re-analysis of the deposited data

How the results depend on the processing

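Of the 14 member probe sets, 1 passed in the main setting. The count was 0 with the deposited values (5.92% of all probe sets passed) or median scaling (15%). It was also 0 with no filter (28 member probe sets tested, 1.22% of all passed) or the Actb covariate (0.0696%). It was 2 with a pseudocount of 32 (14.7%), the 70th percentile filter (8 tested, 24.2% of all) or a trended variance (16.8%). The mean of probe sets gave 2 of 7 genes (13.3% of all genes), and array weights gave 5 (23% of all probe sets). Leaving out 1 array gave 0 to 7, with 7 without XX 1 (Diablo, Trp63, Bok and 4 of Mcl1) and 0 without each of the other 5. Without XX 1, Bok passed the filter through the 3 XY arrays alone. Of all probe sets, 23% passed without XX 1 and 2.3% to 4.2% without each of the others. Among other cell death genes the count of 17 of 125 became 30 with median scaling and 29 with a trended variance. Array weights gave 37, the Actb covariate 0, no filter 5 of 191, and leaving out 1 array 4 to 31. With 1 probe set per gene it was 7 of 59 genes (13.2% of all genes passed). The mean of probe sets also gave 7 of 59 (13.3% of all genes). Over all probe sets, 2386 became 1361 with the deposited values, 551 with no filter, 3874 with a trended variance, 5299 with array weights, 16 with the Actb covariate, and 507 to 5079 with 1 array left out (5079 without XX 1). The split of higher and lower calls, 1153 and 1233, became 567 and 794 (deposited values), 637 and 2811 (median scaling) and 1716 and 922 (trimmed mean scaling). Of the 2386 probe sets called in the main setting, 0 turned sign in any of the 17 alternatives that test probe sets singly, wherever they were tested. The cause of these shifts was not tested.

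The arrays showed no sign of pairing by replicate number, but 3 arrays in each group are too few to exclude it. Same-numbered deviations from the group means correlated at -0.13, -0.01 and -0.06, and 0 of 6 arrays correlated best with their own number. With the replicate number as a block, 0 member probe sets, 6 of other cell death genes and 609 of all probe sets passed, and Diablo had an adjusted p of 0.0820. Signal over background limits Bak1, Bid, most of Bcl2 and most of Trp63, whose probe sets lay near or below the array medians.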
